A study of Mus musculus with 2 samples.

Results

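The miR-26 genes of the mouse are Mir26a-1, Mir26a-2 and Mir26b, 3 hairpin genes that lie in introns of the Ctdsp phosphatase genes. They were taken by Ensembl identifier, without its version, from the GENCODE M21 annotation, and all 3 had a row among the 1973 miRNA genes counted. The reads came from forebrain of B6NCrl mouse embryos at embryonic day 12.5, dissected from healthy animals of both sexes and pooled. The series held 1 group of 2 biological replicates, a pool of 120 embryos (replicate 1) and a pool of 68 embryos (replicate 2), each read as 1 microRNA sequencing library of RNA below 30 nt. No treatment, mutant, second tissue or second age was part of it, so the comparisons possible were between the 3 genes and between the 2 libraries. Differences between the pools cannot be told apart from differences in dissection or library preparation.

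MicroRNAs (miRNAs) are processed from folded precursors, the hairpins. A miRNA pairs with messenger RNAs mainly through its seed, bases 2 to 8 from the 5′ end, and lowers their output. The hosts Ctdsp1, Ctdsp2 and Ctdspl encode small phosphatases that act on the C-terminal domain of RNA polymerase II and are recruited with the repressor REST to silence neuronal genes in cells that are not neurons. The forebrain at this age holds dividing progenitors and the first neurons. In zebrafish, a miR-26 made from an intron of ctdsp2 represses its own host as neurons form.

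The mature miRNAs are shown first because their sequences set which reads a count per gene can hold. Each hairpin can give one product from its 5′ arm (5p) and one from its 3′ arm (3p), and the gene counts do not separate the arms. RefSeq sequences on GRCm38.p6 were found for all 3 genes. Capitals mark the seed.
miR-26a-5p, made by both Mir26a-1 and Mir26a-2: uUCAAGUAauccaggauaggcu
miR-26b-5p, made by Mir26b: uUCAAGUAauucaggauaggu
miR-26a-1-3p, made by Mir26a-1: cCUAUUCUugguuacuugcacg
miR-26a-2-3p, made by Mir26a-2: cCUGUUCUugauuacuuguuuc
miR-26b-3p, made by Mir26b: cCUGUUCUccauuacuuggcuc

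The 5p product was identical, base for base, in Mir26a-1 and Mir26a-2. Against it, miR-26b-5p differed at 2 of the 21 positions compared, C11U and C21U, counted from 1 at the 5′ end with the miR-26a base first, and it was 1 base shorter, 21 against 22. All of them carried the seed UCAAGUA. Among 1738 mature entries of the RefSeq table, no gene outside these 3 carried that seed. The 3p products were more varied. Mir26a-1 and Mir26a-2 differed there at 6 of 22 positions, one of them in the seed (A4G), and Mir26a-2 and Mir26b at 4 of 22 positions, all outside the seed. The seed CUGUUCU of the 3p products of Mir26a-2 and Mir26b occurred in 2 further miRNAs, miR-6932-3p and miR-7039-3p. Their genes were close to the floor: Mir6932 had 2 reads in replicate 1 and 4 in replicate 2, and Mir7039 had 0 and 2.

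The hairpins show how far the copies reach. Capitals mark the 5p and the 3p products.
Mir26b hairpin: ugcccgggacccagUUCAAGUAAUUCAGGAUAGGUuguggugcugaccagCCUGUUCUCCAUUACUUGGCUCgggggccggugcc
Mir26a-1 hairpin: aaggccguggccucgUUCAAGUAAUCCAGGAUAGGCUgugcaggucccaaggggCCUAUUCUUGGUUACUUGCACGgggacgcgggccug
Mir26a-2 hairpin: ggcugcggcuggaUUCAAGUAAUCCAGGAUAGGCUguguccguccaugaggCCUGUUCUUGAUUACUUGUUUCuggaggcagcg

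Mir26a-1 and Mir26a-2 shared an unbroken stretch of 25 bases, which holds all of miR-26a-5p. Mir26b shared at most 11 bases with Mir26a-1 and 10 with Mir26a-2. Searched against all 2202 miRNA hairpins of M21 on both strands, Mir26b had no stretch of 18 bases in common with another hairpin. Mir26a-1 and Mir26a-2 each had such a stretch with 1 other hairpin, which was the other of the pair. Only annotated hairpins were searched, since the genome sequence was not used here. A full-length miR-26a-5p read therefore fits 2 genes equally well, while a miR-26b-5p read fits 1 annotated hairpin.

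The genes lie on 3 chromosomes, on the strand of their hosts. Mir26b (ENSMUSG00000065468.1) spans chr1:74394310-74394394 of mm10, in intron 4 of 6 of the protein-coding transcript of Ctdsp1 with the longest span. Mir26a-1 (ENSMUSG00000065513.1) spans chr9:119031796-119031885, in intron 5 of 7 of that of Ctdspl. Mir26a-2 (ENSMUSG00000065430.1) spans chr10:126995530-126995613, in intron 5 of 7 of that of Ctdsp2. Intron length differed between the hosts, at 564 bases in Ctdsp1, 3283 in Ctdspl and 1946 in Ctdsp2. The hairpins of Mir26b and Mir26a-1 lay near the middle of their introns, while that of Mir26a-2 ended 241 bases before the next exon. The annotation also starts 2 shorter Ctdsp2 transcripts, 1 of them protein-coding, at the last base of the Mir26a-2 hairpin, so this hairpin overlaps their first exon by 1 base.

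**Figure D1:**
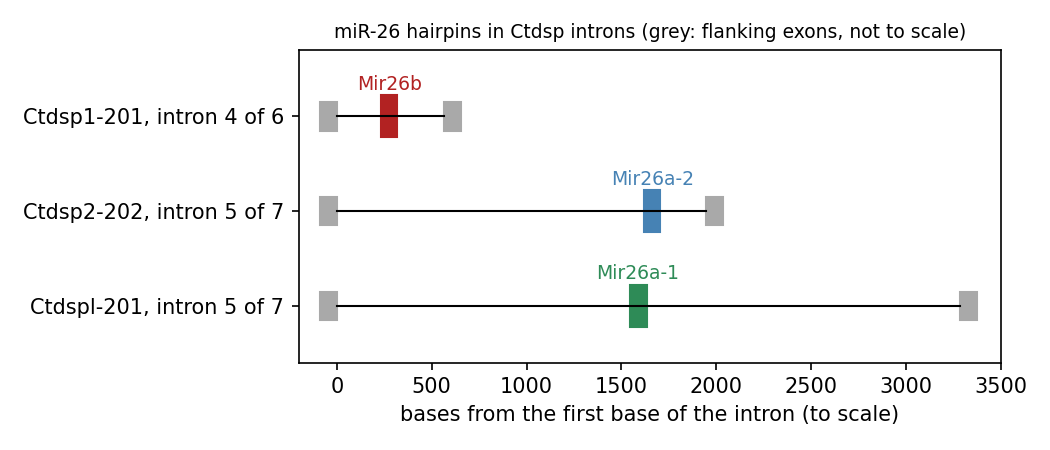
Place of each miR-26 hairpin (coloured box) in the intron of its host transcript, in bases from the first base of the intron. The hairpins of 84 to 90 bases sit in introns of 564 bases (Ctdsp1), 1946 bases (Ctdsp2) and 3283 bases (Ctdspl), and grey boxes mark the flanking exons without scale.

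Replicate 1 held 11104730 reads, with 4333194 on the strand of a miRNA gene (assigned reads), and replicate 2 held 11154304, with 4397107. Reads that matched several places, 4213961 in replicate 1 and 4224434 in replicate 2, stood outside the gene counts. Forebrain markers were present. The list of neural miRNAs summed to 28978 CPM (counts per 1000000 assigned reads) in replicate 1 and 28523 CPM in replicate 2, most of it Mir92b and Mir137, while miRNAs of the Hox clusters, used behind the forebrain, summed to 178.6 and 168.7 CPM. Among the neural markers, few reads were assigned to Mir124a-1 and Mir124a-3, at 1.95 ± 0.830 and 2.18 ± 0.139 CPM (SD, n = 2). The 3 Mir124a hairpins share a stretch of up to 32 bases, so reads within it match several places, and these counts do not give the level of miR-124. Mir9-1 had no row. Other cell types were also read. Mir126a, an endothelial miRNA, stood at 16564 and 21179.8 CPM, erythroid miRNAs summed to 317.8 and 238.3 CPM, the liver miRNA Mir122 to 10.4 and 7.73 CPM and muscle miRNAs to 3.23 and 26.8 CPM. Of the muscle list, Mir133a-1 and Mir133a-2 had 0 assigned reads in both libraries, and Mir1a-2 had no row. Mir126b of the endothelial list and Mir486a of the erythroid list had no row either. Reads that matched several places are not in these counts, so 0 assigned reads do not show that a miRNA was absent.

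Mir26b, the gene in Ctdsp1, carried nearly all reads assigned to the 3 genes and stood among the highest of the miRNA genes by assigned reads. It had 86211 reads in replicate 1 and 96975 in replicate 2, or 19895.5 and 22054.3 CPM, with a mean of 20975 ± 1526 CPM (SD, n = 2). That was 1.99% and 2.21% of all assigned reads, and ranked 12th and 10th among 1973 genes. The ranks leave out reads that matched several places, so genes with copied matures can be undercounted in them. The spread of Mir26b between the libraries was 7.28% of the mean, counting error included. It was narrower than the coefficient of variation between libraries of 16.5% that edgeR estimated over 403 genes, which leaves counting error out.

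Mir26a-2, the gene in Ctdsp2, had 145 reads in replicate 1 and 193 in replicate 2, or 33.5 and 43.9 CPM, with a mean of 38.7 ± 7.38 CPM (SD, n = 2). Mir26a-1, the gene in Ctdspl, had 33 and 41 reads, or 7.62 and 9.32 CPM, with a mean of 8.47 ± 1.21 CPM. Both stood above the floor of a gene without reads, 0.692 CPM in replicate 1 and 0.682 CPM in replicate 2, which covers counting error only. Their ranks were 266 and 261 for Mir26a-2, and 332 and 324 for Mir26a-1. The order Mir26b, Mir26a-2, Mir26a-1 was the same in both libraries, and no value of one gene overlapped with a value of another. None of the 3 had a read on the opposite strand, and no annotated miRNA gene overlaps them.

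**Figure D2:**
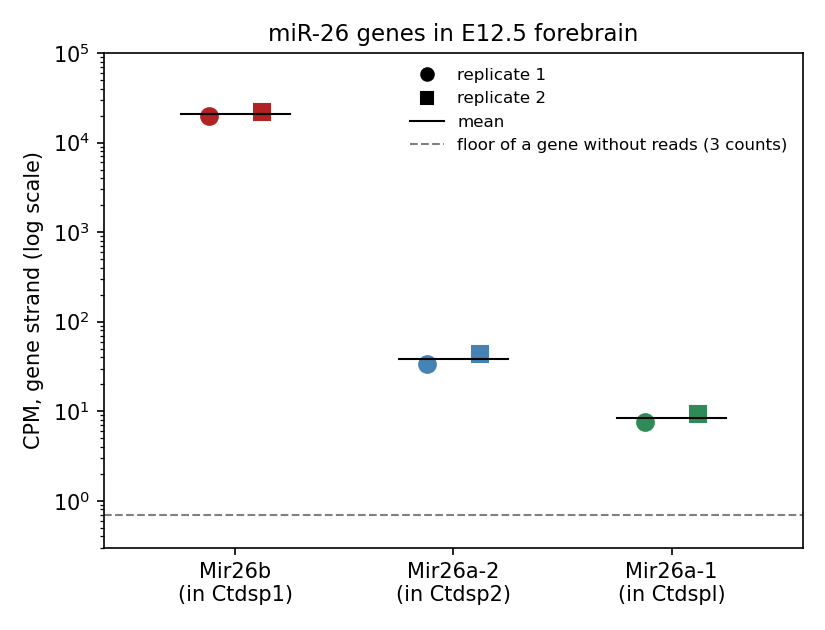
CPM of each miR-26 gene on a log axis, with 1 point per library (circle for replicate 1, square for replicate 2) and the mean as a line. Mir26b lies at 19895.5 and 22054.3 CPM, Mir26a-2 at 33.5 and 43.9 CPM, and Mir26a-1 at 7.62 and 9.32 CPM, all above the dashed floor.

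Of the reads assigned to the 3 genes, Mir26b held 99.794% in replicate 1 (95% exact Clopper-Pearson interval 99.761% to 99.823%) and 99.759% in replicate 2 (99.726% to 99.789%). Its level was 595-fold that of Mir26a-2 in replicate 1 (interval 505 to 705) and 502-fold in replicate 2 (436 to 582). Against Mir26a-1 the ratio was 2612 (1860 to 3795) and 2365 (1743 to 3296). These intervals cover counting error only. Levels were not divided by length, as a miRNA read spans the whole 21 or 22 bases of the product, and the hairpins differ little, at 85 bases for Mir26b, 90 for Mir26a-1 and 84 for Mir26a-2.

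The ratio compares assigned reads and not the amounts of the mature miRNAs. Since miR-26a-5p fits 2 genes and reads with several matches were not assigned, its amount cannot be read from these counts. Mir26b exceeded the 2 Mir26a genes together by 86033 reads in replicate 1 and by 96741 in replicate 2. These gaps equal 2.04% and 2.29% of the reads that matched several places. How many of those reads were miR-26a-5p was not measured in the files, so which of miR-26a and miR-26b was more abundant in this tissue was not determined.

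Between the Mir26a genes themselves the split was alike in both libraries. Mir26a-2 held 81.5% of their assigned reads in replicate 1 (interval 75.0% to 86.9%) and 82.5% in replicate 2 (77.0% to 87.1%). Its level was 4.39-fold that of Mir26a-1 in replicate 1 (2.99 to 6.62) and 4.71-fold in replicate 2 (3.35 to 6.77). On the log2(CPM + 1) scale the difference was 2.06 ± 0.0852 (SD, n = 2), far larger than its spread between libraries. With 2 libraries, a permutation test could not pass 0.05. The assigned reads of these genes can hold the 3p products, which differ between them, or 5p reads that extend past the shared stretch, and the tables do not separate these.

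All 3 genes stood lower in replicate 1 than in replicate 2. The ratio of replicate 1 over replicate 2 was 0.902 for Mir26b (exact 95% interval 0.894 to 0.910), 0.762 for Mir26a-2 (0.610 to 0.951) and 0.817 for Mir26a-1 (0.5004 to 1.32). On the log2(CPM + 1) scale these were -0.15, -0.38 and -0.26, with a median of -0.26, beside a median of -0.04 over the 511 genes tested, of which 56.2% stood lower in replicate 1. Two-sided Fisher's exact test over all 511 genes, which compares these libraries and not conditions, called Mir26b (Benjamini-Hochberg adjusted p = 3.40e-108) and Mir26a-2 (adjusted p = 0.0437) and did not call Mir26a-1 (adjusted p = 0.6003). The calls and the ratio intervals take reads as independent and cover counting error only, with 1 library for each pool. The differences of Mir26b, Mir26a-2 and Mir26a-1 gave spreads of 7.28%, 19.1% and 14.3% of their means, counting error included. The 16.5% that edgeR estimated between the libraries leaves counting error out, so it is not the same measure. These 2 calls in 3 genes stand against a background of 32.7% of genes called in either direction and 20.2% called lower in replicate 1. A call also depends on the number of reads. The genes nearest to Mir26b in level were all called too, Mir93 and Mir149 higher in replicate 1 (log2 ratios 0.089 and 0.093), Mir100 and Mir92b lower (-0.076 and -0.029). Of those nearest to Mir26a-2 only Mir383 was called (-0.58), and of those nearest to Mir26a-1 none. With a 2-fold minimum, 2.74% of genes were called and none of the 3 miR-26 genes. The call of Mir26a-2 depended on the scaling, and was lost with edgeR's TMM (adjusted p = 0.0836) and with DESeq2 size factors (adjusted p = 0.0641). Markers of other cell types also differed between the libraries by the same test. The endothelial Mir126a (log2 ratio -0.35), the muscle miRNA Mir206 (-2.79) and the erythroid Mir144 (-0.51) were lower in replicate 1, whereas the erythroid Mir451a was higher (0.53). The liver miRNA Mir122 and the 4 tested miRNAs of the Hox clusters were not called. Neural markers differed as well: of 10 tested, 1 was called higher in replicate 1 (Mir153, 0.55) and 3 lower, beside the 32.7% of all genes called. The part of these cell types in the miR-26 differences was not tested. In pooled tissue, fewer cells of a type and less RNA per cell cannot be told apart.

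**Figure D3:**
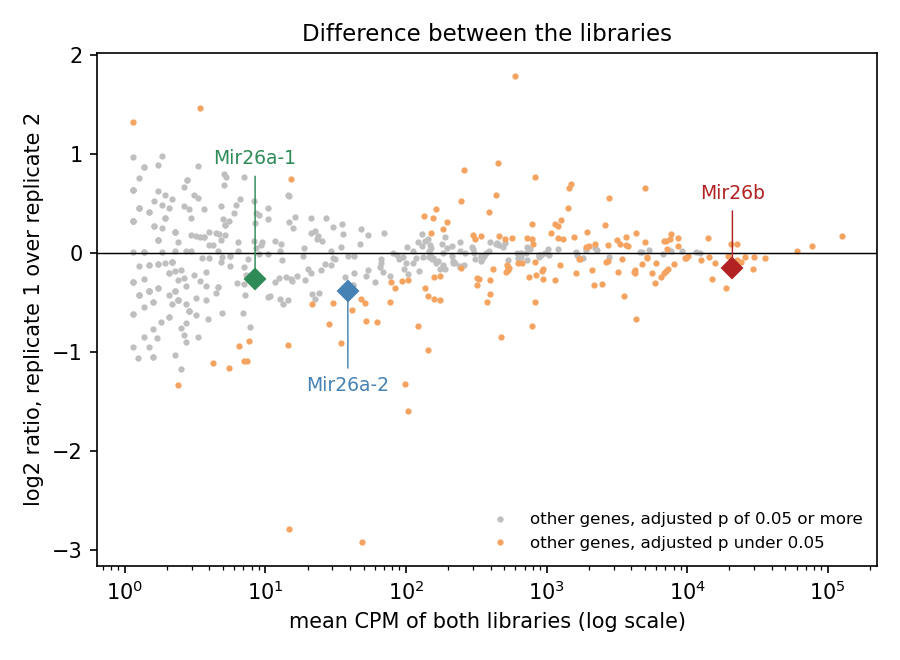
Log2 ratio of replicate 1 over replicate 2 against mean CPM (log axis) for the 511 genes tested, 1 point per gene, orange where the adjusted p of Fisher's exact test was under 0.05. The miR-26 genes (diamonds) lie at -0.15 (Mir26b), -0.38 (Mir26a-2) and -0.26 (Mir26a-1), within the cloud of genes of like level.

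The genes nearest to each member in level were read beside it, with mean CPM over 2 libraries as the measure of likeness. Next to Mir26b stood Mir93 at 22647 ± 992 CPM and Mir100 at 22632 ± 845 CPM above it, and Mir149 at 20565 ± 935 CPM and Mir92b at 19620 ± 283 CPM below it (SD, n = 2). Mir26b lay below Mir100 and above Mir92b in both libraries. Its place against Mir93 and Mir149 was not fixed: Mir26b exceeded Mir93 in replicate 2 only, and Mir149 exceeded Mir26b in replicate 1 only, with 19895.5 CPM for Mir26b against 21225.9 CPM for Mir149. Around Mir26a-2 stood Mir383, Mir326, Mir30c-2 and Mir8112, between 37.2 and 41.4 CPM, and around Mir26a-1 stood Mir5101, Mir1191, Mir7658 and Mir544, between 8.26 and 8.59 CPM. These were chosen as the nearest in level, so their closeness is no result.

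Mir26b and the Mir26a genes were then set beside other miRNA families in which a mature with identical copies has relatives of the same seed without copies. This comparison was added after the values were seen. In 17 such seed families of 100 or more reads over both libraries, genes without copies held over 50% of the family's assigned reads in 16, with a median of 94.9%. Reads of a copied mature that matched several places were not assigned, so these shares do not compare amounts. The minimum of 100 reads could also be met by genes without copies alone, and such a family could only lie above 50%. In the miR-26 family the share of genes without copies, 99.8% ± 0.0245 (SD, n = 2), was the third highest. Above it stood the seed family of miR-6967-5p, whose copied genes had 0 reads, and that of miR-344d-3p, whose copied genes had 0.344 CPM on average and whose share was 99.8% ± 0.0996. Next below came the miR-30c family at 99.7% ± 0.0174, where Mir30a and Mir30e carried the reads, the miR-344 family at 98.9% (100% in replicate 1 and 97.9% in replicate 2) and the miR-29b family at 98.4% ± 0.258, with Mir29a and Mir29c. At the other end, Mir125a and its relatives held 69.1% ± 0.401 beside the miR-125b genes, and Mir7b held 56.6% ± 4.30 beside the miR-7a genes. The exception was the miR-218 family, whose relative without copies, Mir7002, held 0.518%. Family members without an entry in the RefSeq table are not in these shares. The grouping goes by seed alone, so unrelated genes can fall together and a gene can enter by either arm.

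**Figure D4:**
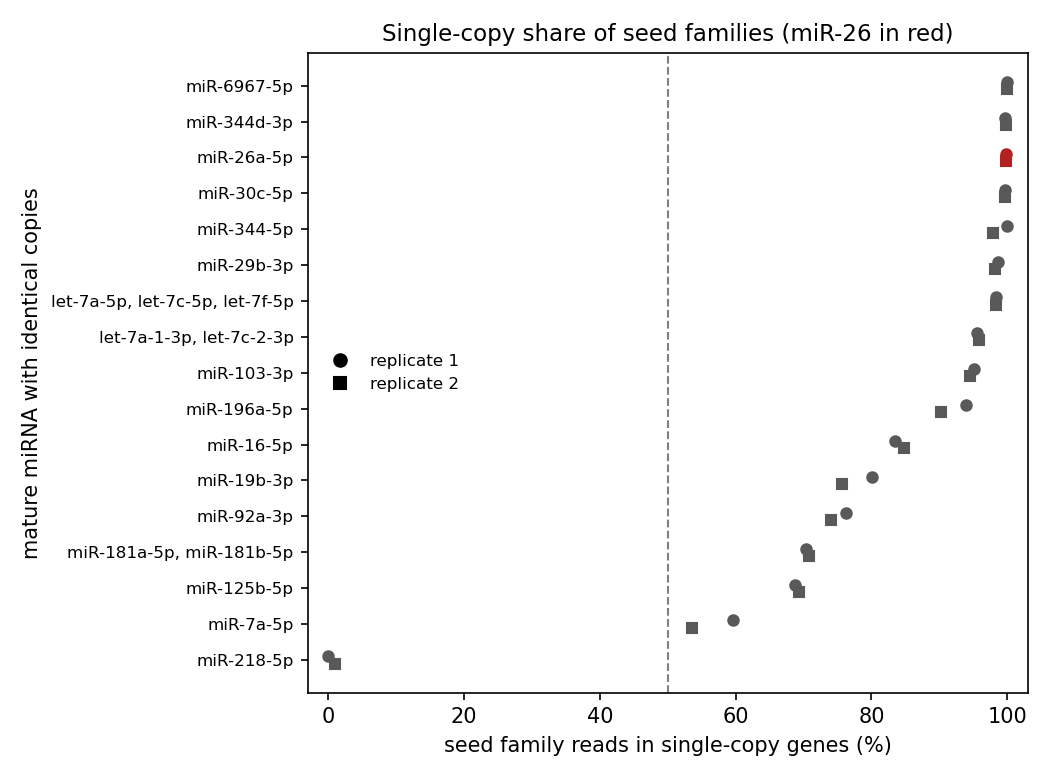
Share of each seed family's assigned reads in genes whose mature has no identical copy, in percent, for 17 families named by their copied mature, with a circle for replicate 1 and a square for replicate 2. The miR-26 family (red) lies at 99.794% and 99.759%, and 16 of the 17 families lie to the right of the dashed line at 50%. Reads of copied matures that matched several places are not in the shares. A family that met the minimum of 100 reads through genes without copies alone could only lie to the right.

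By the same sorting, over single genes, 56 genes had one arm identical at another gene, and 41 of them were detected with at least 10 reads in each library. These were 73.2% of the class, whose median level was 36.2 CPM, and 6 genes (10.7%) reached 1000 CPM, led by Mir92-1 at 7027 ± 628 CPM. Mir26a-2 ranked 27th and Mir26a-1 34th in this class. Of 814 genes without an identical mature elsewhere, Mir26b among them, 313 (38.5%) were detected, the median level was 0.974 CPM and 89 genes (10.9%) reached 1000 CPM. Genes without copies therefore did not stand higher by their median than genes with one copied arm. By sum, the 814 genes held 94.2% of assigned reads in replicate 1 and 94.0% in replicate 2, and the 56 genes 2.87% and 2.93%. Genes without copies did stand higher by their median than the 46 genes with every mature identical at another gene. Of those 46, 10 (21.7%) were detected, the median level was 0 CPM and 0 reached 1000 CPM. These classes too compare assigned reads only. The 1057 genes without a RefSeq mature, of which 39 were detected, are in none of them. Over all 1973 genes 403 were detected, or 20.4%, and the median level was 0 CPM.

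A list of miRNAs in introns of other paralogous host genes was read for likeness in layout. All 10 were detected, with a median of 141 CPM. Mir103-1 and Mir103-2 share miR-103-3p and lie in Pank genes, which encode pantothenate kinases, as does Mir107, whose mature has no copy. The gene without a copied mature had the most assigned reads. Mir103-1 had 26 reads in replicate 1 and 37 in replicate 2, Mir103-2 had 470 and 513 reads, and Mir107 had 9756 and 9594 reads. These genes are also among the seed families above, so they are no separate case. Reads of miR-103-3p that matched several places were not assigned. The genes with a shared mature in this list, which also include Mir128-1, Mir128-2, Mir218-1 and Mir218-2, lay between 7.21 and 247.4 CPM on average. The 4 without, Mir107, Mir153, Mir204 and Mir211, lay between 49.0 and 2777 CPM, so these ranges, taken over several families, overlap. Among the Pank genes alone they did not, with Mir107 at 2217 CPM above Mir103-2 at 112.6 CPM and Mir103-1 at 7.21 CPM. The levels of the miR-26 genes were apart in the same way. Between the libraries, Mir153 was called higher in replicate 1, and Mir128-1, Mir204 and Mir211 lower, with a median log2 ratio of -0.16. These 4 of 10 stand near the background of 32.7%.

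REST-linked miRNAs were read because the hosts of miR-26 act with REST, which holds miR-9, miR-124, miR-132 and miR-212 genes silent outside neurons. Of 8 genes on this list, 7 had a row and 5 were detected, with a median of 6.29 CPM. The highest was Mir9-3 at 713.5 ± 0.551 CPM (SD, n = 2), followed by Mir132 at 184.3 ± 21.7 CPM and Mir212 at 20.2 ± 1.74 CPM. Mir124a-2 stood at 6.29 ± 1.07 CPM and Mir9-2 at 5.61 ± 0.428 CPM. The summed level of the list was 947.1 CPM in replicate 1 and 920.8 CPM in replicate 2, below that of Mir26b alone. The matures of Mir9-2 and Mir9-3 occur at other genes too, and the Mir124a hairpins share a stretch, so this order also covers assigned reads only. Of the 7 genes, 1 was called between the libraries, beside 32.7% of all genes tested. It was Mir132, higher in replicate 1 (log2 ratio 0.24, adjusted p = 0.00350 by Fisher's exact test), and the list's median log2 ratio was -0.09.

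**Figure D5:**
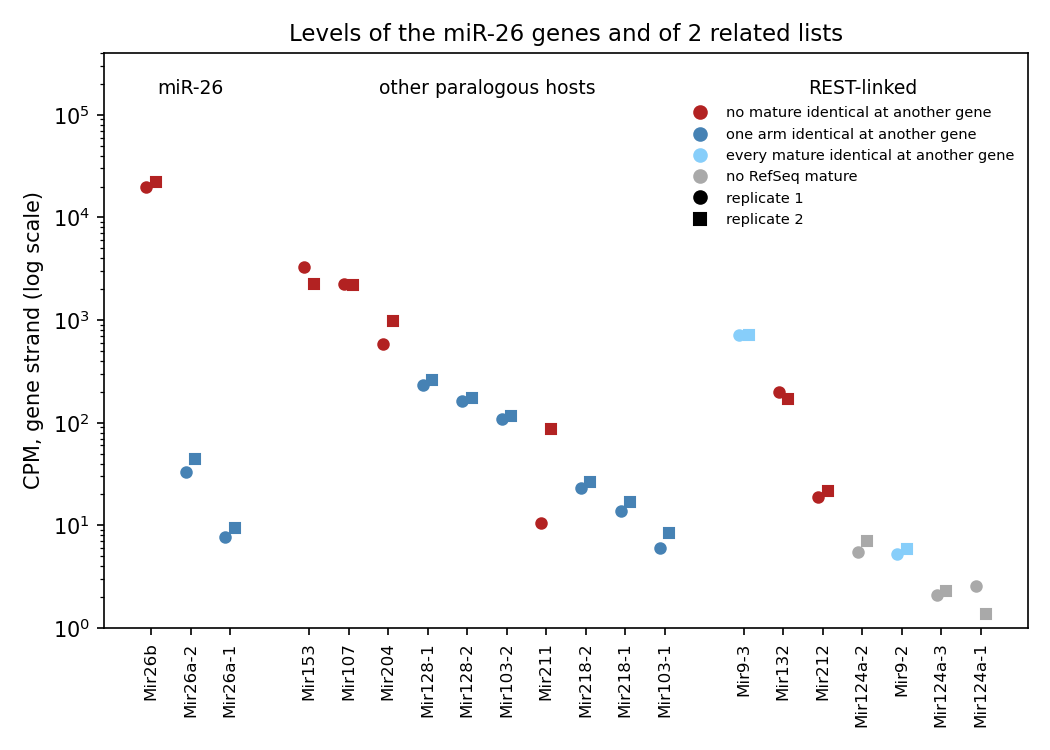
CPM on a log axis of the miR-26 genes, of miRNAs in introns of other paralogous hosts and of REST-linked miRNAs, with a circle for replicate 1 and a square for replicate 2, coloured by whether a mature occurs at another gene. Mir26b lies highest at 19895.5 and 22054.3 CPM, and Mir26a-1 and Mir26a-2 lie among genes that share one arm, which span 7.21 to 247.4 CPM in the list of other paralogous hosts.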

How the data were processed

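The authors deposited raw read counts per gene, 1 table per library, made from mm10 alignments and genome annotation M4, per the notes they deposited beside each table. Aligner, counter and adapter trimming: not given in the sources used here. In every gene the 2 strand columns added up to the both-strand count, and the column with nearly all reads was taken as the gene strand. The 4 rows that name no gene were left out of library sizes: unmapped reads were 17.5% and 16.8% of all reads, multiply matching reads 37.9% in each library, and reads in no feature 5.49% and 5.93%. GENCODE M21 matched 1894 of 1973 genes; RefSeq (GRCm38.p6) matures were found for 916.

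CPM are counts per 1000000 gene-strand reads, and log ratios used a pseudocount of 1 CPM. With 1 group, edgeR's quasi-likelihood test had no contrast. Fisher's exact test covered genes of 10 or more reads over both libraries, with Benjamini-Hochberg adjustment and a threshold of 0.05. On simulated data it was tried only with a 2-fold minimum added, so calls without that minimum were not checked there. The dispersion of edgeR was also tested on simulated data. A stretch of 18 bases counted as shared between hairpins, and a RefSeq mature as copied where an M21 hairpin at another locus held all of it. Named genes were the members, the 2 genes next above and below each in level, genes sharing a seed, and list members. The members and lists were chosen with earlier results of these data known. Python 3.11.15, SciPy 1.17.1, pandas 2.3.3, NumPy 2.4.6, R 4.3.3, edgeR 4.0.16 and DESeq2 1.42.0 were used.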

Additional observations from a re-analysis of the deposited data

How the results depend on the processing

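Of 77 alternatives run on 15 results, 60 were labelled the same. For most, they kept the direction and the side of the threshold or stayed within the spread between replicates. Counts of genes called were judged instead by their ratio to the main count. Those labelled the same were 178, 162 and 168 against 167, and 15 and 13 against 14 with a 2-fold minimum. None of the 77 turned a direction. Some of the 60 were fixed in advance, so this count overstates how far the results hold. With 2 libraries, the level, share or log2 difference of either library alone always lies within that spread of their mean. A pseudocount changes neither the sign nor the adjusted p of a ratio between the libraries. The both-strand column cannot change the share, as no miR-26 gene had a read on the opposite strand. Counted per 1000000 of all reads, levels were 8229 CPM for Mir26b, 15.2 CPM for Mir26a-2 and 3.32 CPM for Mir26a-1. With the most abundant gene taken out of the library size, Mir26b stood at 23997 CPM and Mir26a-1 at 9.69 CPM. The log2 ratio of replicate 1 over replicate 2 of Mir26a-2 lost its call with edgeR's TMM (-0.34), with DESeq2 size factors (-0.36), with the most abundant gene taken out (-0.36, adjusted p = 0.0637 by Fisher's exact test) and with genes of at least 1 read tested (-0.38, adjusted p = 0.0653, where more genes enter the adjustment). Its adjusted p ranged from 0.0286 to 0.0836 over the alternatives run. With a pseudocount of 10 CPM, which compresses low levels, the log2 difference was 8.76 for Mir26b minus Mir26a-2, 10.15 for Mir26b minus Mir26a-1 and 1.39 for Mir26a-2 minus Mir26a-1. With a pseudocount of 0.1 CPM the differences from Mir26a-1 were 11.26 for Mir26b and 2.17 for Mir26a-2. In the both-strand column Mir26a-1 ranked 340 and Mir26a-2 ranked 273. At least 100 reads together left 5 genes called with a 2-fold minimum, against 14, since fewer genes were tested. No paired analysis was possible because there was 1 group. The 33 and 41 reads of Mir26a-1 limit what its ratio between the libraries can show.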
